A study of Homo sapiens with 48 samples.

Results

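The genes described are 9 members of the AP-1 transcription factor family, the FOS group (FOS, FOSB, FOSL1 and FOSL2), the JUN group (JUN, JUNB and JUND) and 2 smaller partners (BATF3 and MAFF). They were taken by symbol, through their Ensembl identifiers, from the 58870 genes counted in all 48 libraries of the series, and all 9 passed the low-count filter in every experiment. RNA was sequenced from 92-1, MEL202 and MP41, established human uveal melanoma cell lines whose genotype is labelled WT. Cells received FHT-1015, an inhibitor of both SMARCA4 and SMARCA2, the exchangeable ATPases of the BAF chromatin remodelling complex, or the vehicle DMSO, labelled as the negative control, for 4 h or 24 h. In 92-1 alone, IDE196, an inhibitor of protein kinase C (PKC), was given for the same times beside a second set of DMSO libraries, labelled replicates 4 to 6. There were thus 4 experiments of 12 libraries and 16 groups of 3, and each drug was compared with the DMSO group of its own experiment at the same time. Doses are not given in the labels, and each line is a single line, so that a difference among lines cannot be told apart from a difference among experiments.

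AP-1 is a dimer of basic leucine zipper (bZIP) proteins. FOS proteins bind DNA only as partners of JUN proteins, whereas JUN proteins also pair with each other, and the dimers bind the TPA response element or the related cAMP response element. FOS, FOSB, JUN and JUNB are classical immediate early genes, switched on within minutes by MAP kinase signalling through serum response factor and its ETS partners, while FOSL1 is a later target whose level follows lasting MAP kinase activity. BATF3 lacks a transactivation domain and pairs with JUN proteins. MAFF is a small MAF protein, also without a transactivation domain, that pairs with itself, with other small MAF proteins or with cap'n'collar factors. In uveal melanoma, an activated Gq signal feeds PKC and, through it, the MAP kinases that lie upstream of these genes.

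The libraries held 11394088 to 32317711 reads in genes (median 19996476.5). The summed library-scaled counts (CPM) of 8 melanocyte lineage markers were 7970 to 22300 in the DMSO libraries. The same sum over the 6 fibroblast markers was 2.57 to 45.2 in all 48 libraries, and it was 0.409 to 23.5 for 5 epithelial, 0 to 6.12 for 4 leukocyte and 0 to 1.81 for 3 endothelial markers. The spread between replicates was widest in MEL202, with a biological coefficient of variation of 0.294, against 0.217 in MP41 and 0.117 and 0.112 for FHT-1015 and IDE196 in 92-1. As a median over all genes tested at 4 h, the standard error (SE) was accordingly 0.314 log2 units for MEL202, 0.233 for MP41, and 0.142 and 0.141 for FHT-1015 and IDE196 in 92-1. Replicates are labelled as biological, but nothing says that they came from separate cultures, so p-values measure the spread between these samples. Levels are relative to the library total, and in bulk RNA fewer cells carrying a transcript and less transcript per cell cannot be told apart.

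The RefSeq start-site windows of the members differ in the elements they carry, and the stretches below show some of the elements found in 6 members that were called in at least 1 comparison (RefSeq, GRCh38.p14, 5′ to 3′, capitals marking every searched motif). The windows ran from 250 bases before to 50 bases after each start, were found for 7 of the 9 members and were searched on both strands. FOS is shown over chr14:75278783-75278812 (plus strand), FOSB over chr19:45467746-45467994 (plus), JUNB over chr19:12791236-12791485 (plus), JUND over chr19:18281623-18281872 (minus), MAFF over chr22:38201929-38201958 (plus, the first of its 2 windows) and FOSL2 over chr2:28392851-28392880 (plus). Those of FOSB and JUND adjoin the annotated gene, that of JUNB ends a few bases before it, and the other stretches are 30 bases around a single element. These shorter stretches lie within the annotated span of their gene, and most of that of FOSL2 comes after its start.
FOS promoter: taaaacgcttgtTATAAAagcagtggctgc
FOSB promoter: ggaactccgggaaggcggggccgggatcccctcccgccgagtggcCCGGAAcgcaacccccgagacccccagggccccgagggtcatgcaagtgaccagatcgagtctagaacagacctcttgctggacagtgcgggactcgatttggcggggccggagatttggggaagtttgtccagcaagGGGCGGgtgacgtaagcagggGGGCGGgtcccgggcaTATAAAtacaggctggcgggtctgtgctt
JUNB promoter: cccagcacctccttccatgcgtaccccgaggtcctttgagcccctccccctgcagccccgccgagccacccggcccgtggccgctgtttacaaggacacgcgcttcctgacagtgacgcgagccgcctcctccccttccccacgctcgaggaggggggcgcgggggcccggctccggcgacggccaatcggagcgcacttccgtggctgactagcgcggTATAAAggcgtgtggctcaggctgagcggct
JUND promoter: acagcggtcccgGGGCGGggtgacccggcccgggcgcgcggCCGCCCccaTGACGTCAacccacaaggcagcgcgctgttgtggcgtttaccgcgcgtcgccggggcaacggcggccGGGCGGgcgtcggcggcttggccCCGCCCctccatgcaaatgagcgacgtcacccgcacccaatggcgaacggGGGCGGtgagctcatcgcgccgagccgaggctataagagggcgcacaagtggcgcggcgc
MAFF promoter: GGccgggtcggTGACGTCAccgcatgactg
FOSL2 promoter: tgccattgtagTGACTCAtctcgggcagag
FOS, FOSB and JUNB hold a TATA box (TATAAA) 33, 30 and 31 bases before the start, a motif found in 11.5% of all 35116 windows. JUND and MAFF hold instead a full cAMP response element (TGACGTCA), 200 and 54 bases before the start, present in 1.85% of windows. FOSL2 holds the AP-1 element itself (TGACTCA, with TGAGTCA as its other strand) 5 bases after its start, as do 4.95% of windows. The other capitals in FOSB and JUND are GGGCGG or its reverse CCGCCC, the SP1 box (45% of windows), and the ETS core CCGGAA in FOSB (17.2%). The capitals that open the MAFF stretch are the end of an SP1 box. Outside the stretches, FOS and FOSL2 hold an SP1 box 127 and 247 bases before the start, and JUND holds another 45 bases after it. The first MAFF window holds further SP1 boxes and an ETS core 3 bases after the start, and its second window holds SP1 boxes. A CArG box, the serum response factor site, occurs in 1.29% of all windows and in none of the members' windows. Sites farther than 250 bases before the start, or with other letters, were not searched, so such a site may still lie outside the windows. JUN has only SP1 boxes among the searched motifs, and FOSL1 and BATF3 are named only.

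Without drug, JUND was the most abundant member in all 3 lines, while FOSB and BATF3 were low in each, and the place of FOS, FOSL1 and FOSL2 varied with the line. Levels of different genes were compared as CPM per kb of exon. JUND had the highest mean in every DMSO group, from 39.3 ± 9.26 (SD, n = 3) in MP41 at 24 h to 145 ± 15.0 in the IDE196 experiment of 92-1 at 4 h. JUNB was second in all of them except MEL202 at 24 h, where JUN had 26.7 ± 1.8 and JUNB 24.3 ± 3.24, a gap within their spread. These counts leave out reads where JUNB overlaps HOOK2 on the opposite strand. Summing both strands raised the total of JUNB 1.368 times, that of MAFF 1.004 times and that of JUN 1.0 times. The level of JUNB may thus be understated, and its place against JUN and MAFF depends on the counting. In 92-1 (FHT-1015 experiment, 4 h) the order ran on from JUND at 79.9 ± 17.6 CPM per kb through JUNB at 17.1 ± 2.31, JUN at 11.5 ± 2.79, MAFF at 11.1 ± 0.9, FOS at 3.91 ± 0.259, FOSL2 at 2.24 ± 0.367, FOSL1 at 0.953 ± 0.119, FOSB at 0.663 ± 0.181 and BATF3 at 0.467 ± 0.101. Of the neighbours in that order, JUN and MAFF, and FOSL1 and FOSB, had overlapping libraries and did not differ beyond their spread. In MEL202 at 4 h the level of FOS was 6.94 ± 0.81 CPM per kb, beside 4.87 ± 1.54 for MAFF and 3.69 ± 1.1 for FOSL2. In MP41 at 4 h the order was JUND at 48.3 ± 5.54 CPM per kb, JUNB at 25.4 ± 0.544, JUN at 21 ± 4.33, FOSL2 at 9.3 ± 0.296, FOS at 8.1 ± 1.18, FOSL1 at 7.6 ± 0.587, MAFF at 7.14 ± 0.66, BATF3 at 2.95 ± 0.325 and FOSB at 0.522 ± 0.0236. There JUNB and JUN overlapped, and so did each neighbouring pair from FOSL2 to MAFF. At 24 h in MP41, JUN had 10.2 ± 1.64 CPM per kb, beside 7.67 ± 1.19 for FOSL2 and 7.54 ± 1.12 for FOS. With the longest transcript in place of all exons as length, MAFF moved up to second in 92-1 at 4 h, at 18.9 CPM per kb. In MP41 at 4 h FOS and MAFF, at 12.2 CPM per kb each, then passed FOSL2 at 9.92. In MP41 at 24 h JUN at 10.2 was then below MAFF at 15.3 and FOS at 11.3.

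**Figure D1:**
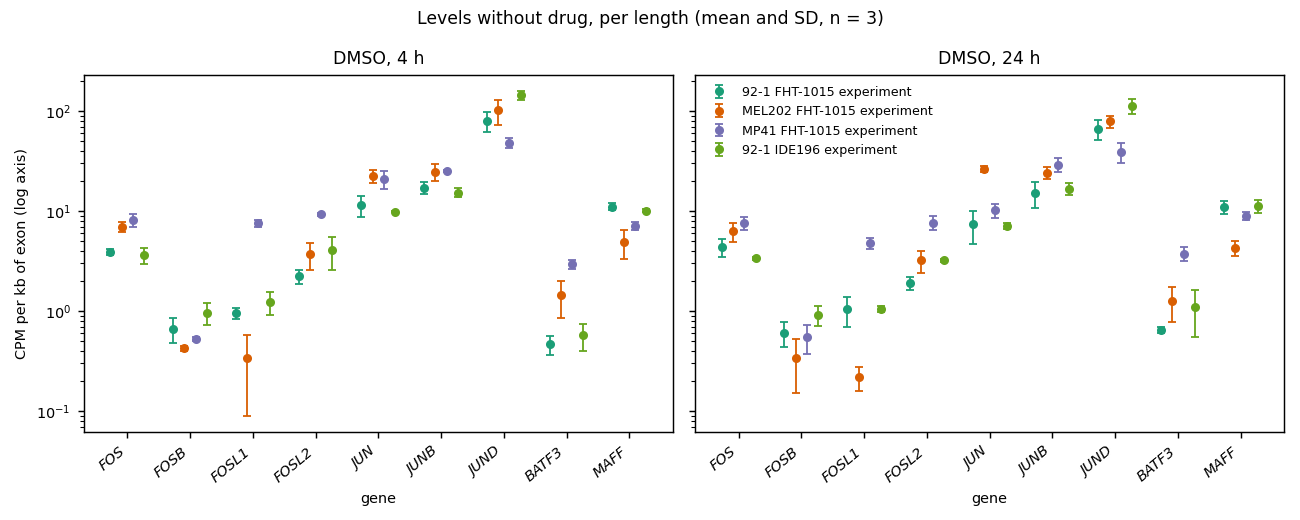
Level of each gene without drug (CPM per kb of exon, log axis) at 4 h and at 24 h, with the mean as a point and the SD of 3 libraries as a bar, for each of the 4 experiments. JUND is highest throughout, and FOSL1 separates the lines most, with 7.6 CPM per kb in MP41 and 0.336 in MEL202 at 4 h.

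The lines differed in these starting levels in 8 of 9 members at 4 h and in 9 of 9 at 24 h by edgeR's F-test over the lines, against 63.2% and 68.7% of all genes tested. FOSL1 differed most: in DMSO at 4 h its level was 15.0, 13.1 and 15.0 CPM in MP41, 1.56, 2.01 and 1.81 CPM in 92-1, and 1.02, 0.117 and 0.77 CPM in MEL202 (edgeR adjusted p = 6.47e-10). MP41 thus had a FOSL1 level that no library of the other lines came near. It also had the most FOSL2, with 68.9, 64.9 and 65.7 CPM against 13.2 to 18.4 in 92-1 and 17.3 to 31.2 in MEL202 (edgeR adjusted p = 6.46e-08). The other DMSO set of 92-1 at 4 h, that of the IDE196 experiment, held 41.2, 21 and 25 CPM of FOSL2, above the 13.2 to 18.4 of the first set. MP41 further had the most BATF3 among the 3 lines, with 7.37 to 9.02 CPM against 0.954 to 1.45 and 2.23 to 5.33 (edgeR adjusted p = 1.48e-06). MAFF was highest in 92-1, with 56.4 to 65.2 CPM, and lowest in MEL202, with 17.9 to 34.8 (edgeR adjusted p = 6.22e-06). FOSB was the member not called at 4 h (edgeR adjusted p = 0.106). The call of JUNB at 4 h (edgeR adjusted p = 0.0349) was lost in 3 of 7 alternative analyses. It was also lost without DMSO replicate 1 (adjusted p = 0.198) or 3 (0.0621) of 92-1 or DMSO replicate 1 (0.0579) or 3 (0.0744) of MEL202. That of FOSB at 24 h (edgeR adjusted p = 0.0239) was lost in 2 of 7. With libraries left out, it was lost without DMSO replicate 2 (0.0652) or 3 (0.0657) of 92-1 or DMSO replicate 1 (0.189) or 3 (0.17) of MEL202.

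Between 4 h and 24 h in DMSO, edgeR called 1 member, JUN in MP41. It went from 60.1, 72.0 and 90.5 CPM at 4 h to 42.1, 30.6 and 35.3 at 24 h, and it fell by 1.04 on the log2 scale (edgeR adjusted p = 0.0196, SE 0.19), where 2.59% of genes were called. That call was lost without replicate 2 or without replicate 3 of the DMSO libraries at 4 h, with adjusted p-values of 0.0731 and 0.0974. In MP41 DESeq2 called 2 members, where it called 13.8% of all genes, and limma-voom called 6 of 9, where it called 53.4%. By edgeR 0 members were called in the other 3 experiments, where 0.344% (FHT-1015 experiment of 92-1), 0.0% (MEL202) and 0.266% (IDE196 experiment) of all genes were called. At an unadjusted p under 0.05, 1, 0 and 3 members passed there, beside 8.81%, 2.07% and 14.3% of all genes, and 0 by DESeq2 and by limma-voom.

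The members that passed the test with FHT-1015 varied with the line. In 92-1 at 4 h, FOS, FOSB, FOSL2 and JUNB rose and BATF3 fell, so that 4 of 9 members were called higher and 1 lower, where 12.9% and 16.7% of all genes were. At 24 h, FOS, FOSB, JUNB and JUND were higher and BATF3 and MAFF lower (4 and 2 of 9, with 29.2% and 31.4% of all genes). In MEL202, edgeR called 0 members in either direction at 4 h, with 0.157% and 0.522% of all genes called. There, 1 member was higher and 1 lower at an unadjusted p under 0.05, DESeq2 called 1 higher, and limma-voom called 0. At 24 h JUNB rose and JUN and BATF3 fell (1 and 2 of 9, with 8.69% and 10.1% of all genes). In MP41, MAFF fell at 4 h and edgeR called 0 members higher, with 0.0708% of all genes called higher and 0.154% lower. Of the higher members 1 passed an unadjusted p under 0.05, limma-voom called 1 and DESeq2 called 0. In both directions together, 8.58% of all genes at 4 h in MEL202 and 5.78% in MP41 passed an unadjusted p under 0.05. DESeq2 called 2% and 0.853% there and limma-voom 0.723% and 4.18%. With FHT-1015 at 24 h limma-voom called 65.5% of all genes in 92-1, 55.5% in MEL202 and 60.7% in MP41, and its added calls of members below stand beside these shares. At 24 h in MP41, JUNB rose and FOSL1, BATF3 and MAFF fell (1 and 3 of 9, with 17.4% and 18.7% of all genes).

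At 4 h of IDE196 8 of 9 members were called. FOS, FOSB, FOSL1, FOSL2, JUNB and MAFF fell and JUN and JUND rose, so that 6 of 9 members were called lower and 2 higher, where 9.3% and 6.89% of all genes were. At 24 h, 5 of 9 were lower (FOSB, FOSL1, JUNB, BATF3 and MAFF) and 1 higher (JUN), with 29.4% and 28.7% of all genes called.

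**Figure D2:**
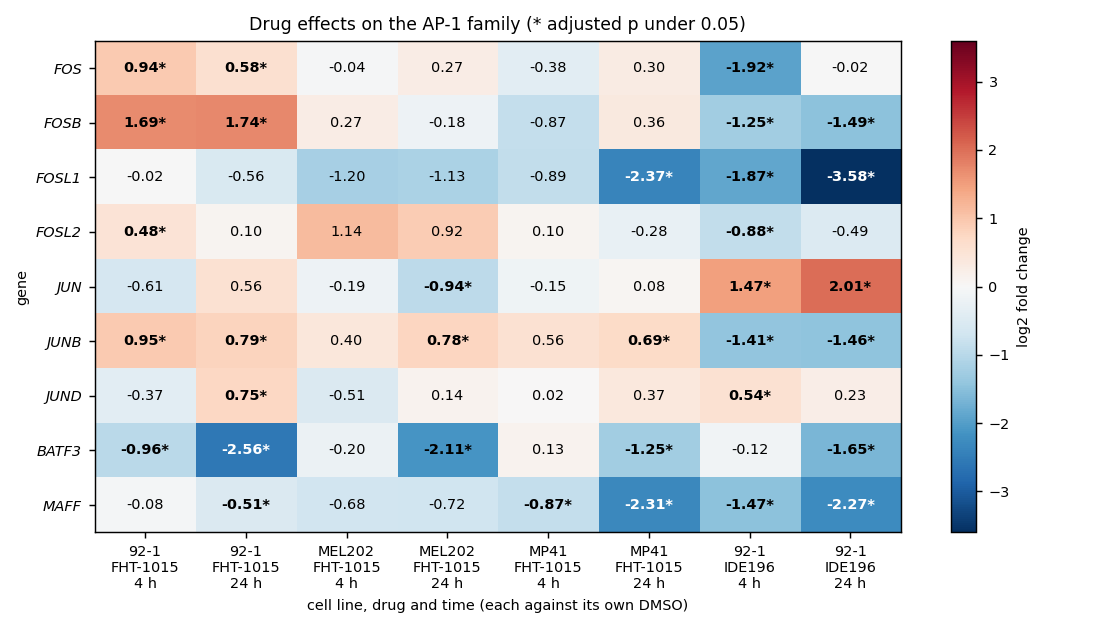
Log2 fold change of each gene (rows) under each drug against its own DMSO (columns), with an asterisk where the edgeR adjusted p was under 0.05, and red for higher and blue for lower with drug. JUNB is red and called at 24 h with FHT-1015 in all 3 lines and blue with IDE196, and BATF3 is blue and called at 24 h in all 4 experiments.

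**Figure D3:**
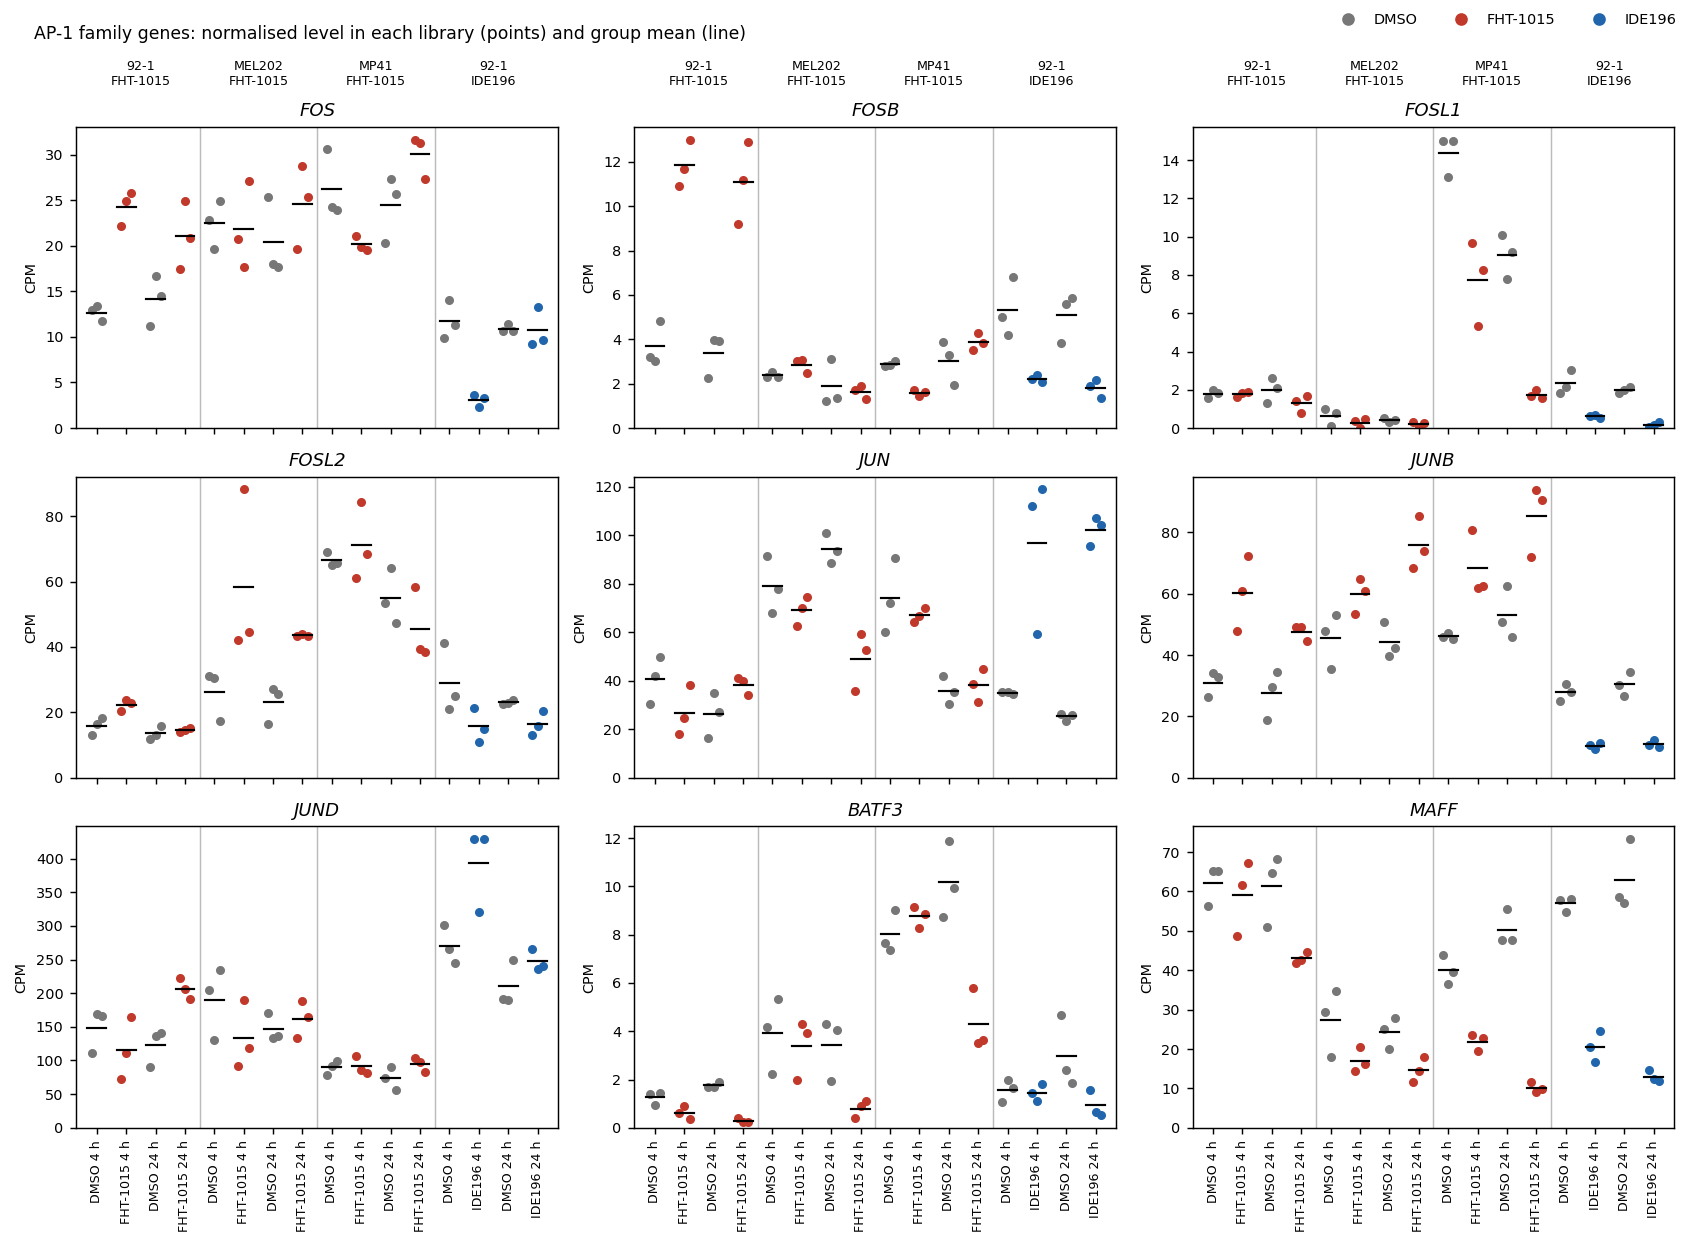
Normalised level (CPM) of each gene in every library, as a point per library and a line at the mean of 3, by experiment, treatment and time, each panel with its own linear axis from 0. JUN under IDE196 at 24 h sits at 95.4 to 107 CPM, above the 23.5 to 26.5 of its DMSO libraries, and FOSL1 in MP41 drops to 1.57 to 1.98 CPM at 24 h of FHT-1015.

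FOS (ENSG00000170345.10, chr14:75278774-75282230, plus strand, GRCh38) is the founding partner of JUN and the standard early read-out of MAP kinase signalling. In 92-1 its level in DMSO at 4 h was 12.9, 13.4 and 11.7 CPM, and with FHT-1015 it was 22.2, 24.9 and 25.8 CPM. Every FHT-1015 library was above every DMSO library, and FOS rose by a log2 fold change of 0.94 (edgeR adjusted p = 0.000196, SE 0.15). At 24 h the values were 11.2, 16.7 and 14.5 CPM without and 17.5, 24.9 and 20.8 CPM with FHT-1015, a log2 fold change of 0.58 (edgeR adjusted p = 0.0034, SE 0.15). With IDE196 at 4 h the direction was the opposite: FOS fell from 9.87, 14.1 and 11.3 CPM to 3.64, 2.31 and 3.3 CPM, a log2 fold change of -1.92 (edgeR adjusted p = 2.14e-06, SE 0.19). At 24 h the groups overlapped, as IDE196 gave 9.27, 13.3 and 9.62 CPM and DMSO 10.6, 11.4 and 10.7, and the change of the IDE196 effect between the times was itself called (difference 1.9 on the log2 scale, edgeR adjusted p = 3.18e-05, SE 0.26). In MEL202 the groups overlapped at both times (17.7 to 28.7 CPM with drug, 17.7 to 25.4 without), and limma-voom called FOS higher there at 24 h (adjusted p = 0.0167), as it did in MP41 at 24 h (0.00147). In MP41 at 4 h the FHT-1015 libraries, at 19.5 to 21.1 CPM, lay below the DMSO libraries, at 23.9 to 30.6, but the log2 fold change of -0.38 (SE 0.16) was not called (edgeR adjusted p = 0.771).

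FOSB (ENSG00000125740.14, chr19:45467995-45475179, plus strand), an early partner of JUN with a short splice form known for its stability, had the largest FHT-1015 rise of the members in 92-1. DMSO libraries at 4 h held 3.19, 3.02 and 4.84 CPM and FHT-1015 libraries 10.9, 11.7 and 13 CPM, a log2 fold change of 1.69 (edgeR adjusted p = 2.96e-05, SE 0.22). FOSB was also higher at 24 h, going from 2.25, 3.95 and 3.94 CPM to 9.21, 11.2 and 12.9 CPM (log2 fold change 1.74, edgeR adjusted p = 7.1e-06, SE 0.23). No 92-1 library with FHT-1015 was as low as any with DMSO. Under IDE196 FOSB fell at 4 h, from 5.02, 4.19 and 6.8 CPM to 2.21, 2.41 and 2.08 CPM (log2 fold change -1.25, edgeR adjusted p = 0.0013, SE 0.24), and at 24 h, from 3.82, 5.58 and 5.87 CPM to 1.91, 2.15 and 1.35 CPM (log2 fold change -1.49, edgeR adjusted p = 5.56e-05, SE 0.25). Unlike FOS, FOSB thus remained below its DMSO level at 24 h of IDE196. By edgeR MEL202 and MP41 gave no call. In MP41 the 4 h FHT-1015 libraries, at 1.46 to 1.7 CPM, lay below the DMSO libraries, at 2.8 to 3.04 (log2 fold change -0.87, edgeR adjusted p = 0.395, SE 0.28), which limma-voom called (adjusted p = 0.035). At 24 h the groups overlapped (3.52 to 4.29 against 1.95 to 3.86 CPM). The difference of 1.23 between these 2 effects in MP41 was called (edgeR adjusted p = 0.0379, SE 0.38) but lost in 9 of 12 analyses with a library left out, among them those without any 1 of the FHT-1015 libraries at 4 h (adjusted p 0.0767 to 0.0953). It was lost too without the filter (adjusted p = 0.106).

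FOSL1 (ENSG00000175592.8, chr11:65892049-65900573, minus strand) encodes FRA1, the FOS protein most tied to lasting MAP kinase activity. In MP41, where it was highest, DMSO libraries at 24 h held 10.1, 7.77 and 9.2 CPM and FHT-1015 libraries 1.67, 1.98 and 1.57 CPM. FOSL1 fell there by 2.37 on the log2 scale (edgeR adjusted p = 6.86e-06, SE 0.24), with the groups far apart. At 4 h the MP41 values were 15.0, 13.1 and 15.0 CPM without and 9.66, 5.35 and 8.26 CPM with FHT-1015, which did not overlap, but the log2 fold change of -0.89 (SE 0.22) was not called (edgeR adjusted p = 0.154). It was called by DESeq2 (adjusted p = 0.0312), by limma-voom (0.000609) and with the 6 compared libraries (0.0289). The effect at 24 h was the stronger of the 2 (difference -1.47, edgeR adjusted p = 0.00604, SE 0.32). In 92-1, IDE196 brought FOSL1 from 1.85, 2.12 and 3.02 CPM to 0.654, 0.703 and 0.533 CPM at 4 h (log2 fold change -1.87, edgeR adjusted p = 0.00147, SE 0.36). At 24 h it was down to 1, 3 and 6 reads in the IDE196 libraries, against 42, 42 and 50 reads in DMSO, and the fitted log2 fold change was -3.58 (edgeR adjusted p = 3e-06, SE 0.45). FHT-1015 left overlapping FOSL1 levels in 92-1 at both times (0.793 to 1.89 CPM with, 1.29 to 2.59 without). The log2 fold change at 24 h was -0.56 (edgeR adjusted p = 0.136, SE 0.32), and it was called by limma-voom (-0.95, adjusted p = 0.0123) and without DMSO replicate 1 (-0.82, adjusted p = 0.0346). Over the libraries left out, the other end was -0.33 (adjusted p up to 0.413). In MEL202 the gene had 0 to 9 reads in the FHT-1015 libraries and 2 to 21 in the DMSO libraries, and the log2 fold changes of -1.2 (edgeR adjusted p = 0.851, SE 0.97) at 4 h and -1.13 (edgeR adjusted p = 0.496, SE 1.0) at 24 h were not called.

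FOSL2 (ENSG00000075426.12, chr2:28392448-28417312, plus strand) encodes FRA2, the other late FOS protein. In 92-1 at 4 h it rose with FHT-1015, from 13.2, 16.4 and 18.4 CPM to 20.3, 23.8 and 22.9 CPM (log2 fold change 0.48, edgeR adjusted p = 0.0139, SE 0.13). That call did not hold in a single fit of all 48 libraries (adjusted p = 0.257), nor without DMSO replicate 1 (0.0767) or FHT-1015 replicate 2 (0.0633). In MEL202 every FHT-1015 library was above every DMSO library at both times, with 42.0, 88.2 and 44.5 CPM against 31.2, 30.6 and 17.3 at 4 h, and 43.5, 44.1 and 43.3 CPM against 16.6, 27.2 and 25.5 at 24 h. Neither passed the threshold (log2 fold changes 1.14, edgeR adjusted p = 0.159, SE 0.31, and 0.92, edgeR adjusted p = 0.0554, SE 0.31). The first was called in 3 of 9 alternative analyses, without the filter (adjusted p = 0.00897), by DESeq2 (0.0286) and with all 48 libraries (0.00336). Its adjusted p was 0.926 with the 6 compared libraries alone, and without FHT-1015 replicate 2 its log2 value dropped to 0.71 (adjusted p = 0.355). That library, at 88.2 CPM, had a read in 17592 genes, the fewest of all 48, against 22239 and 22077 in its replicates. The second was called in 6 of 9, DESeq2 among them (adjusted p = 0.0252), and without DMSO replicate 3 (0.0356) or FHT-1015 replicate 2 (0.0142) of 4 h. IDE196 lowered FOSL2 at 4 h, from 41.2, 21.0 and 25 CPM to 21.4, 10.9 and 14.9 CPM (log2 fold change -0.88, edgeR adjusted p = 0.0154, SE 0.24). There the groups overlapped, and the call was lost without DMSO replicate 4 (log2 fold change -0.54, adjusted p = 0.0819), IDE196 replicate 2 (0.0846) or IDE196 replicate 3 (0.0558) and with the 6 compared libraries alone (0.0519). The IDE196 libraries of 24 h, at 13, 16 and 20.3 CPM, lay below the DMSO libraries, at 22.5, 23 and 23.7 (log2 fold change -0.49, edgeR adjusted p = 0.0837, SE 0.24). This was called without the filter (adjusted p = 0.000839), with limma-voom (0.0149) and with the 6 compared libraries (0.00669). It was also called without DMSO replicate 4 of 4 h (adjusted p = 0.026), IDE196 replicate 1 of 4 h (0.0499) or IDE196 replicate 3 of 24 h (0.0387). In MP41 the FOSL2 libraries overlapped at both times, between 38.5 and 84.3 CPM, and limma-voom called FOSL2 lower at 24 h (-0.39 on the log2 scale, adjusted p = 0.00861).

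JUN (ENSG00000177606.6, chr1:58780788-58784327, minus strand), the founding JUN protein and the target of the JUN N-terminal kinases, rose with IDE196 while all 4 FOS members fell at 4 h. DMSO libraries at 4 h held 35.2, 35.2 and 34.4 CPM and IDE196 libraries 112, 59.1 and 119 CPM, a log2 fold change of 1.47 (edgeR adjusted p = 1.54e-05, SE 0.17). At 24 h the values were 26.5, 23.5 and 25.9 CPM without and 95.4, 107 and 104 CPM with IDE196, a log2 fold change of 2.01 (edgeR adjusted p = 4.17e-08, SE 0.18). All IDE196 libraries were above all DMSO libraries. With FHT-1015, MEL202 went the other way at 24 h: JUN fell from 101, 88.4 and 93.5 CPM to 35.7, 59.1 and 52.7 CPM (log2 fold change -0.94, edgeR adjusted p = 0.0072, SE 0.21). In 92-1, FHT-1015 gave log2 fold changes of -0.61 at 4 h (edgeR adjusted p = 0.0986, SE 0.27) and 0.56 at 24 h (edgeR adjusted p = 0.0849, SE 0.27), with overlapping groups and neither called. The first was called in 3 of 9 alternative analyses, limma-voom among them (adjusted p = 0.00344), and without FHT-1015 replicate 3 of 4 h (0.0143). Over the libraries left out, its log2 value ran from -0.94 to -0.38 (adjusted p up to 0.307). The second was called in 5 of 9, among them limma-voom (adjusted p = 0.0488), the 6 compared libraries alone (0.0447) and all 48 libraries (0.0471). It was also called without DMSO replicate 2 of 24 h (0.0249) or FHT-1015 replicate 3 of 4 h (0.0492). Without DMSO replicate 1 of 24 h its log2 value dropped to 0.29 (adjusted p = 0.346). The shift between these times was called (1.17, edgeR adjusted p = 0.0197, SE 0.38), but not without DMSO replicate 3 of 4 h (adjusted p = 0.0569). In MP41 JUN overlapped between treatments at each time (64.3 to 70.2 against 60.1 to 90.5 CPM at 4 h, 31.1 to 44.8 against 30.6 to 42.1 at 24 h).

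JUNB (ENSG00000171223.6, chr19:12791496-12793315, plus strand), an early JUN protein that can also restrain JUN, was the member with an FHT-1015 rise common to the lines. At 24 h it rose in all 3 lines: from 18.7, 29.7 and 34.6 CPM to 49.1, 49.1 and 44.6 CPM in 92-1 (log2 fold change 0.79, edgeR adjusted p = 0.00197, SE 0.19), from 50.9, 39.6 and 42.4 CPM to 68.4, 85.3 and 73.8 CPM in MEL202 (0.78, edgeR adjusted p = 0.0159, SE 0.2), and from 50.8, 62.4 and 45.8 CPM to 71.8, 93.9 and 90.4 CPM in MP41 (0.69, edgeR adjusted p = 0.00547, SE 0.17). In each line the FHT-1015 libraries were all above the DMSO libraries. The MEL202 call was lost without DMSO replicate 2, DMSO replicate 3 or FHT-1015 replicate 2 of 24 h (adjusted p 0.0639, 0.0678 and 0.0824), and the MP41 call with the 6 compared libraries alone (0.0681). At 4 h the 92-1 values were 26.3, 34.1 and 32.7 CPM without and 47.7, 60.7 and 72.2 CPM with drug (log2 fold change 0.95, edgeR adjusted p = 0.00116, SE 0.19). In MEL202 and MP41 at 4 h the libraries with drug were also above those without, but log2 fold changes of 0.4 and 0.56 were not called (edgeR adjusted p = 0.636 and 0.294). The second was called by limma-voom (adjusted p = 0.00414) and with the 6 compared libraries (0.0226). IDE196 lowered JUNB at both times, from 25, 30.7 and 27.9 CPM to 10.7, 9.49 and 11.3 CPM at 4 h (log2 fold change -1.41, edgeR adjusted p = 6.17e-07, SE 0.13) and from 30.2, 26.8 and 34.5 CPM to 10.8, 12.2 and 10.2 CPM at 24 h (-1.46, edgeR adjusted p = 2.73e-08, SE 0.13). The gene overlaps HOOK2 on the opposite strand, and the library kit does not mark strand. Summing the counts of both strands, which keeps reads in the overlap, raised its total 1.368 times and left the sign and the call of all 8 log2 fold changes as they were.

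JUND (ENSG00000130522.5, chr19:18279760-18281622, minus strand), the steadily expressed JUN protein, was the most abundant member and was called in 2 of the 8 drug comparisons. With FHT-1015 it rose in 92-1 at 24 h, from 90.6, 137 and 141 CPM to 222, 206 and 192 CPM (log2 fold change 0.75, edgeR adjusted p = 0.0118, SE 0.23). The groups were apart, although the call was lost without DMSO replicate 1 (log2 fold change 0.56, adjusted p = 0.0634). At 4 h in 92-1 the groups overlapped, at 72.7 to 164 CPM with and 111 to 169 CPM without drug (log2 fold change -0.37, edgeR adjusted p = 0.263, SE 0.23). This was called by limma-voom (adjusted p = 0.0236), without the filter (0.00775) and without FHT-1015 replicate 3 (log2 fold change -0.7, adjusted p = 0.0246). Over the libraries left out, the value ran to -0.12 at the other end (adjusted p up to 0.71). The effect at 24 h was higher than that at 4 h (difference 1.12, edgeR adjusted p = 0.0121, SE 0.33). IDE196 raised JUND at 4 h, from 301, 266 and 245 CPM to 429, 320 and 429 CPM (log2 fold change 0.54, edgeR adjusted p = 0.00607, SE 0.13). This was not called in a single fit of all 48 libraries (adjusted p = 0.231), and at 24 h the IDE196 effect was 0.23 (edgeR adjusted p = 0.121, SE 0.13), called by limma-voom (adjusted p = 0.042) and without DMSO replicate 6 (0.0203). The DMSO libraries of 92-1 at 4 h had 111 to 169 CPM in the FHT-1015 experiment and 245 to 301 CPM in the IDE196 experiment, so the 2 sets of the same line stood apart in this gene, as they did in FOSL2. By edgeR MEL202 and MP41 gave no call for JUND, with libraries between 91.5 and 234 CPM and between 55.6 and 107 CPM. In MP41 at 24 h (log2 fold change 0.37, edgeR adjusted p = 0.132, SE 0.19) it was called by limma-voom (adjusted p = 0.0337) and without DMSO replicate 2 (0.0222), with log2 values of 0.14 to 0.54 over the libraries left out.

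BATF3 (ENSG00000123685.9, chr1:212686418-212699985, minus strand), best known from dendritic cells, fell at 24 h in all 4 experiments. In 92-1 it had 37, 27 and 31 reads in DMSO and 6, 3 and 4 reads with FHT-1015, or 1.7, 1.67 and 1.91 against 0.409, 0.238 and 0.233 CPM (log2 fold change -2.56, edgeR adjusted p = 4.55e-05, SE 0.4). MEL202 went from 4.29, 1.93 and 4.06 CPM to 0.388, 0.893 and 1.1 CPM (log2 fold change -2.11, edgeR adjusted p = 0.00851, SE 0.49). In both lines the FHT-1015 libraries were all below the DMSO libraries, although on few reads in 92-1. MP41, with the highest start, went from 8.73, 11.9 and 9.94 CPM to 5.79, 3.53 and 3.64 CPM (log2 fold change -1.25, edgeR adjusted p = 0.000651, SE 0.22). With IDE196 it went from 4.66, 2.41 and 1.87 CPM to 1.57, 0.669 and 0.54 CPM (log2 fold change -1.65, edgeR adjusted p = 0.00259, SE 0.42). There too no drug library reached a DMSO library. At 4 h the only call was in 92-1 with FHT-1015 (log2 fold change -0.96, edgeR adjusted p = 0.0448, SE 0.34), and it was lost in 7 of 9 alternative analyses and in 8 of 12 with a library left out. The effect was larger at 24 h than at 4 h in 92-1 (difference -1.59, edgeR adjusted p = 0.0244, SE 0.54) and in MP41 (-1.37, edgeR adjusted p = 0.00728, SE 0.31). In 92-1 that difference was lost in 2 alternative analyses, DESeq2 among them (adjusted p = 0.0614), and in 4 of 12 with a library left out.

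MAFF (ENSG00000185022.12, chr22:38200767-38216511, plus strand) fell most in MP41 and with IDE196. In MP41 it went from 44.0, 36.6 and 39.6 CPM to 23.5, 19.5 and 22.7 CPM at 4 h (log2 fold change -0.87, edgeR adjusted p = 0.0307, SE 0.15) and from 47.6, 55.5 and 47.8 CPM to 11.5, 9.0 and 9.92 CPM at 24 h (-2.31, edgeR adjusted p = 3.18e-07, SE 0.16). The groups did not overlap at either time, and the effect deepened (difference -1.44, edgeR adjusted p = 0.000582, SE 0.22). The 4 h call was lost in 9 of 12 analyses with a library left out (adjusted p 0.00545 to 0.214). Under IDE196 MAFF went from 57.9, 54.9 and 58.2 CPM to 20.4, 16.8 and 24.5 CPM at 4 h (log2 fold change -1.47, edgeR adjusted p = 6.04e-07, SE 0.13) and from 58.6, 57.0 and 73.3 CPM to 14.6, 12.5 and 11.9 CPM at 24 h (-2.27, edgeR adjusted p = 3.91e-10, SE 0.14). Here too the later effect was the larger (difference -0.8, edgeR adjusted p = 0.00307, SE 0.19). In 92-1 FHT-1015 lowered it at 24 h, from 50.9, 64.6 and 68.3 CPM to 41.9, 42.6 and 44.7 CPM (log2 fold change -0.51, edgeR adjusted p = 0.00277, SE 0.13). In MEL202 the 24 h libraries with drug, at 11.7 to 17.9 CPM, were below those without, at 19.9 to 27.8, and the log2 fold change of -0.72 (SE 0.27) missed the threshold (edgeR adjusted p = 0.0769). It was called by limma-voom (adjusted p = 0.000289), with the 6 compared libraries (0.012), with all 48 libraries (0.0012) and without DMSO replicate 2 of 4 h (0.0397). At 4 h the log2 fold change of -0.68 in MEL202 (edgeR adjusted p = 0.43) was called in the fit of all 48 libraries (0.0208).

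The FHT-1015 effect differed among the 3 lines for 2 members at 4 h and for 4 at 24 h, by edgeR's F-test in a joint fit of the 36 libraries, where 1.38% and 12% of all genes were called. At 4 h these were FOS (edgeR adjusted p = 0.00822) and FOSB (0.000901), which were called higher in 92-1 and in neither other line. At 24 h they were FOSB (edgeR adjusted p = 0.00247), where 92-1, MEL202 and MP41 had log2 fold changes of 1.74, -0.18 and 0.36, FOSL2 (0.0249), with 0.1, 0.92 and -0.28, JUN (0.00568), with 0.56, -0.94 and 0.08, and MAFF (8.15e-06), with -0.51, -0.72 and -2.31. For JUNB no difference among the lines was called at 24 h (edgeR adjusted p = 0.856), nor for BATF3 (0.264), FOSL1 (0.0856), FOS (0.516) or JUND (0.409), which does not show that the lines responded alike. The FOSL2 difference was lost in 4 of 36 analyses with a library left out. These were the ones without DMSO replicate 1 of MEL202 (adjusted p = 0.0915) or DMSO replicate 2 (0.0598), FHT-1015 replicate 2 (0.0611) or FHT-1015 replicate 3 (0.065) of MP41, all of 24 h.

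Within 92-1, the effects of FHT-1015 and IDE196 differed for 8 of 9 members at 4 h and for 5 of 9 at 24 h, where 24.6% and 33% of all genes were called. Each effect was taken against its own DMSO set. At 4 h the early genes FOS, FOSB and JUNB were opposed, higher with FHT-1015 and lower with IDE196, and the difference (FHT-1015 effect minus IDE196 effect, log2) was 2.86 for FOS (edgeR adjusted p = 2.63e-09, SE 0.25), 2.94 for FOSB (edgeR adjusted p = 1.61e-07, SE 0.33) and 2.36 for JUNB (edgeR adjusted p = 3.12e-08, SE 0.24). JUN had the reverse difference, -2.08 (edgeR adjusted p = 4.54e-05, SE 0.34), and so had JUND, -0.91 (edgeR adjusted p = 0.0207, SE 0.29), the latter lost in 4 of 24 analyses with a library left out. FOSL1 (1.84), FOSL2 (1.35) and MAFF (1.39) also differed, with the lower log2 fold change under IDE196. At 24 h the differences that remained called were those of FOSB (3.22, edgeR adjusted p = 1.96e-08, SE 0.34), JUNB (2.25, edgeR adjusted p = 2.63e-08, SE 0.24), FOSL1 (3.01, edgeR adjusted p = 0.000117, SE 0.56), MAFF (1.77, edgeR adjusted p = 4.53e-08, SE 0.2) and JUN (-1.45, edgeR adjusted p = 0.00173, SE 0.35). BATF3 did not differ by the test at either time (edgeR adjusted p = 0.313 and 0.306). Its difference was -0.85 (SE 0.57) at 4 h and -0.91 (SE 0.64) at 24 h, and both drugs lowered it at 24 h.

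**Figure D4:**
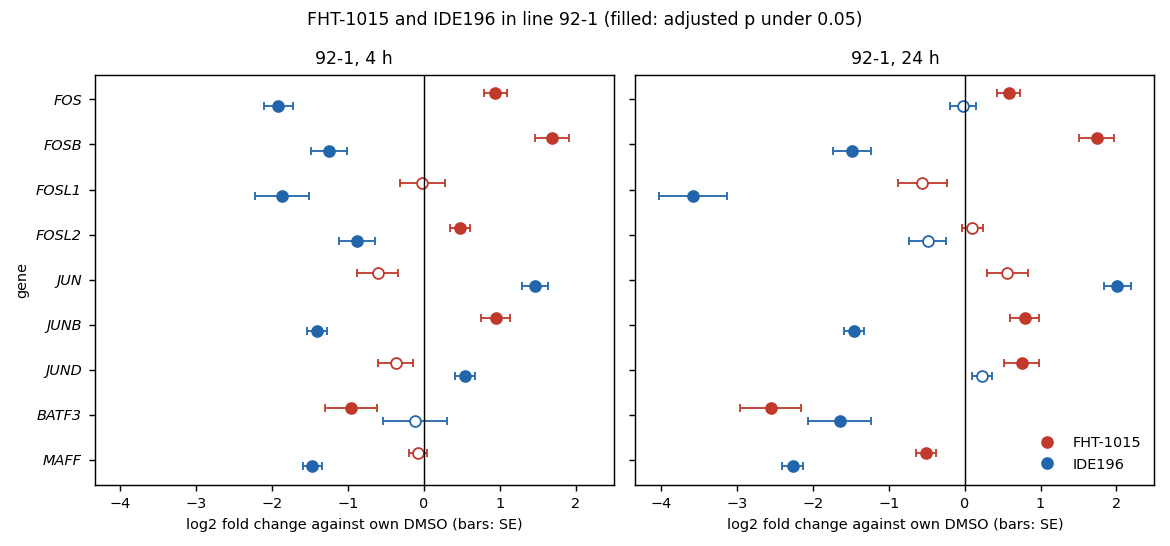
Log2 fold change of each gene against its own DMSO in 92-1 at 4 h and 24 h, as a point with its SE, for FHT-1015 (red) and IDE196 (blue), filled where the edgeR adjusted p was under 0.05. FOSB and JUNB lie on opposite sides of 0 at both times, at 1.69 and -1.25 and at 0.95 and -1.41 at 4 h.

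The drug effect, in size or direction, changed between 4 h and 24 h for 3 members with FHT-1015 in 92-1 (JUN, JUND and BATF3), for 4 in MP41 (FOSB, FOSL1, BATF3 and MAFF) and for 3 with IDE196 (FOS, FOSL1 and MAFF), where 45.5%, 18.6% and 30.7% of all genes were called. In MEL202, edgeR called 0 members, with 6.89% of all genes. There 2 members passed an unadjusted p under 0.05, near the 20.5% of all genes. The count was 1 by limma-voom, which called 16% of all genes, and 0 by DESeq2. The FOSL1 difference with IDE196 (-1.71, edgeR adjusted p = 0.0419, SE 0.61) was lost in 9 of 12 analyses with a library left out, and its log2 value fell to -1.21 without IDE196 replicate 1 of 24 h (adjusted p = 0.136). It was also lost without the filter (adjusted p = 0.0533) and with both strands summed (0.0562).

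Among markers, the summed melanocyte lineage level did not overlap between treatments in 92-1 at 4 h of FHT-1015, at 15300 to 17300 CPM with drug and 20000 to 21200 CPM without. SOX10, a melanocyte lineage factor, was called lower at 4 h there (-4.94 on the log2 scale), in MEL202 (-3.04) and in MP41 (-2.26). It was the 1 marker of 8 called in MEL202 and in MP41 at 4 h, with list medians of -0.134 and -0.092. In 92-1 at 4 h 4 of 8 were lower and 1, TRPM1, higher (0.34, edgeR adjusted p = 0.0328, SE 0.11), where 16.7% and 12.9% of all genes were. At 24 h of FHT-1015 the sum was 4730 to 5210 CPM with drug and 19200 to 22300 CPM without in 92-1, 2860 to 3270 against 7970 to 9890 in MEL202, and 5740 to 6570 against 12500 to 13000 in MP41. With IDE196 at 24 h it was 16800 to 19000 against 15800 to 18400 CPM, where SOX10 (0.67) and DCT (3.17) were called higher and TYR lower (-0.36). MITF was called lower at 4 h of IDE196 (-0.56). The fibroblast sum was 33.9 to 42.5 CPM in MEL202 with FHT-1015 at 24 h and 6.66 to 8.39 without, most of it the collagen gene COL3A1 (33.8 ± 4.19 against 4.61 ± 0.999 CPM, SD, n = 3), and 10.8 to 12.1 against 3.35 to 4.01 CPM in 92-1. In 92-1 the collagen gene COL1A1 was called higher (1.92) and LUM, the lumican gene, lower (-1.84), the 2 fibroblast markers tested there. With IDE196 at 24 h the fibroblast sum was 11.5 to 21 CPM against 6.68 to 11.1, with COL1A1 called higher (0.8). Of the 6 fibroblast markers, 3 reached 1 CPM in MEL202 and 1 in 92-1 in the FHT-1015 groups of 24 h. Their part in the changes of the AP-1 genes was not tested.

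Of 12 other bZIP genes that can join or rival AP-1 dimers, ATF3, the stress-induced ATF protein, was higher at 24 h in 92-1 with both drugs and in MP41. It rose from 5.81 ± 0.955 to 32.3 ± 4.59 CPM (SD, n = 3) with FHT-1015 in 92-1 (log2 fold change 2.46, edgeR adjusted p = 3.88e-09, SE 0.16), by 1.79 in MP41 (edgeR adjusted p = 0.000125, SE 0.25) and by 1.76 with IDE196 (edgeR adjusted p = 4.86e-07, SE 0.19), while MEL202 gave -0.1 (edgeR adjusted p = 0.819, SE 0.24). MAFG, a small MAF protein like MAFF, fell at 24 h in 92-1 with FHT-1015 (-0.64), in MEL202 (-0.77), in MP41 (-1.4) and with IDE196 (-0.55). MAFK, the other small MAF gene, fell at 4 h in 92-1 with FHT-1015 (-0.92) and with IDE196 (-0.91), and at 24 h in MP41 (-0.95) and with IDE196 (-1.09). JDP2, a repressor that binds JUN, fell in 92-1 with FHT-1015 (-1.87 at 4 h and -0.88 at 24 h) and rose with IDE196 at 24 h (0.71). MAF, a large MAF activator, fell with FHT-1015 in 92-1 (-0.91 and -0.77) and rose with IDE196 at 24 h, from 29.6 ± 1.98 to 104 ± 7.43 CPM (1.81, edgeR adjusted p = 4.81e-09, SE 0.13). BATF, the nearest relative of BATF3, had a mean of at most 0.0178 CPM in every group.

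In numbers, 1 of 9 tested bZIP genes was higher and 3 lower at each time in 92-1 with FHT-1015, where 12.9% and 16.7% of all genes were called at 4 h and 29.2% and 31.4% at 24 h. The medians were -0.192 and 0.168 on the log2 scale, and those of all genes 0.00714 and -0.000817. In MEL202, edgeR called 0 of 11 in either direction at 4 h, with 0.157% and 0.522% of all genes (1 higher and 4 lower at an unadjusted p under 0.05, 1 lower by DESeq2, 0 by limma-voom). At 24 h it called 0 higher and 1 lower, with 8.69% and 10.1% of all genes (3 higher at an unadjusted p under 0.05, 2 by DESeq2, 5 by limma-voom, median 0.442 against -0.00551 over all genes). In MP41 it called 0 of 10 at 4 h, with 0.0708% and 0.154% of all genes (1 lower at an unadjusted p under 0.05 and by limma-voom, 0 by DESeq2), and 4 were higher and 2 lower at 24 h, with 17.4% and 18.7% (median -0.214, all genes 0.0651). With IDE196, 1 of 10 was higher and 1 lower at 4 h, with 6.89% and 9.3% of all genes, and 6 were higher and 2 lower at 24 h, with 28.7% and 29.4% (median 0.543, all genes 0.0287). At 24 h in 92-1 the shares called lower were thus near or under those of all genes with both drugs.

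The kinases and factors that act on FOS and JUN (24 genes, the ERK, JNK and p38 modules with serum response, ETS and MEF2 factors) moved in both directions with each drug. MEF2C, a MEF2 factor that acts on the JUN promoter, rose with FHT-1015 at 4 h in 92-1 from 146 ± 11.9 to 275 ± 16.6 CPM (log2 fold change 0.91, edgeR adjusted p = 1.86e-06, SE 0.09) and at 24 h in MP41 (1.76, edgeR adjusted p = 6.99e-05, SE 0.23), and fell with IDE196 at both times (-1.97 and -2.02). ELK3, an ETS partner of serum response factor, likewise rose with FHT-1015 at 4 h in 92-1 (0.62) and fell with IDE196 at 4 h (-1.33). RPS6KA3, the kinase RSK2 that phosphorylates FOS, rose with FHT-1015 in 92-1 (0.43 at 4 h and 1.06 at 24 h) and in MP41 at 24 h (2.16, edgeR adjusted p = 9.87e-05, SE 0.3), and fell with IDE196 at 24 h, from 639 ± 43.4 to 135 ± 10.2 CPM (-2.25, edgeR adjusted p = 5.37e-12, SE 0.09). MAP2K5, the kinase above ERK5, rose at 24 h in 92-1 with FHT-1015 (1.13) and IDE196 (1.47) and in MEL202 (0.81). RPS6KA1 fell at 24 h of FHT-1015 in all 3 lines (-1.05 in 92-1, -0.74 in MEL202 and -0.65 in MP41).

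By count, 7 of 24 inputs were higher and 2 lower at 4 h with FHT-1015 in 92-1 (12.9% and 16.7% of all genes), and 11 and 4 at 24 h (29.2% and 31.4%). At 24 h the counts were 3 and 1 in MEL202 (8.69% and 10.1% of all genes; 11 and 4 by limma-voom, which called 55.5% of all genes) and 7 and 2 in MP41 (17.4% and 18.7%). At 4 h edgeR called 0 of 24 in MEL202 (0 also at an unadjusted p under 0.05, by DESeq2 and by limma-voom) and 0 of 24 in MP41 (2 higher at an unadjusted p under 0.05 and by limma-voom, 0 by DESeq2). With IDE196, 1 of 23 was higher and 5 lower at 4 h (6.89% and 9.3% of all genes), and 6 and 8 at 24 h (28.7% and 29.4%). The medians of this list were -0.0136, 0.262, 0.204, 0.225, -0.0101 and 0.268 for 4 h and 24 h in 92-1, MEL202 and MP41, and -0.0419 and -0.0864 with IDE196, with no median of all genes beyond 0.0651.

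Other immediate early genes, which share their MAP kinase inputs with FOS, FOSB and JUNB, were lower in 10 of 19 genes at each time of IDE196. There were 4 higher at 4 h and 6 at 24 h. Of all genes 9.3% were lower and 6.89% higher at 4 h, and 29.4% and 28.7% at 24 h, so that the 6 higher are near the share of all genes (medians -0.776 and -1.05, all genes 0.0139 and 0.0287). EGR1, the early zinc finger factor, fell from 13.9 ± 4.03 to 0.89 ± 0.607 CPM at 4 h of IDE196 (log2 fold change -4.0, edgeR adjusted p = 3.01e-07, SE 0.33) and rose from 12.1 ± 3.22 to 68.6 ± 9.85 CPM at 4 h of FHT-1015 in 92-1 (2.51, edgeR adjusted p = 1.83e-07, SE 0.2). In MP41 it fell at 24 h of FHT-1015, from 7.4 ± 2.86 to 3.27 ± 0.3 CPM (-1.18, edgeR adjusted p = 0.00184, SE 0.24). NR4A2, an early nuclear receptor, rose with FHT-1015 in every line and time, most in 92-1 at 24 h (4.88, edgeR adjusted p = 1.22e-10, SE 0.23). In 92-1 with FHT-1015, 8 of 19 of these genes were higher and 6 lower at 4 h (12.9% and 16.7% of all genes), and 9 and 3 at 24 h (29.2% and 31.4%), with medians of 0.274 and 0.472. Of 19 in MEL202 the counts were 3 and 1 at 4 h (0.157% and 0.522% of all genes) and 5 and 3 at 24 h (8.69% and 10.1%). Of 20 in MP41 they were 2 and 0 at 4 h (0.0708% and 0.154% of all genes) and 5 and 3 at 24 h (17.4% and 18.7%). The count of 0 lower there became 4 at an unadjusted p under 0.05 and by limma-voom and was 0 by DESeq2. IER5 fell with FHT-1015 at 24 h in all 3 lines (-2.36 in 92-1, -0.88 in MEL202 and -1.34 in MP41).

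Of 24 genes taken as AP-1 targets, 10 to 13 were expressed enough to test, and they moved in both directions. CCND1, the cyclin D1 gene, fell with FHT-1015 in 92-1 at both times (-1.39 and -1.86), in MEL202 at 24 h from 438 ± 102 to 40.7 ± 3.31 CPM (-3.43, edgeR adjusted p = 2.46e-05, SE 0.35), in MP41 at 24 h (-2.27) and with IDE196 (-1.89 and -1.42). CD44, the hyaluronan receptor gene, fell with FHT-1015 in 92-1, from 507 ± 27.9 to 52.8 ± 3.48 CPM at 24 h (-3.26, edgeR adjusted p = 2.02e-12, SE 0.1), and rose with IDE196 at 24 h, from 736 ± 98.3 to 1580 ± 101 CPM (1.1, edgeR adjusted p = 2.27e-06, SE 0.14). HBEGF, a growth factor gene, rose in 92-1 at 4 h with both drugs (0.6 with FHT-1015 and 1.36 with IDE196). With FHT-1015 in 92-1, 3 of 10 targets were higher and 3 lower at 4 h (12.9% and 16.7% of all genes), and 3 and 5 at 24 h (29.2% and 31.4%). Of 10 in MEL202, 0 and 1 were called at 4 h (0.157% and 0.522% of all genes) and 0 and 4 at 24 h (8.69% and 10.1%). Of 13 in MP41, 0 and 0 were called at 4 h (0.0708% and 0.154% of all genes) and 4 and 4 at 24 h (17.4% and 18.7%). Of 12 with IDE196, 2 and 3 were called at 4 h (6.89% and 9.3% of all genes) and 6 and 4 at 24 h (28.7% and 29.4%). The 3 higher at 24 h in 92-1 and the 4 lower at 24 h of IDE196 are near the shares of all genes. For the counts of 0 by edgeR, 1 gene was higher at an unadjusted p under 0.05 in MEL202 at each time (0 by DESeq2 at both times, 0 and 2 by limma-voom). In MP41 at 4 h 1 was higher and 3 lower at an unadjusted p under 0.05 (1 lower by DESeq2, 3 lower by limma-voom).

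**Figure D5:**
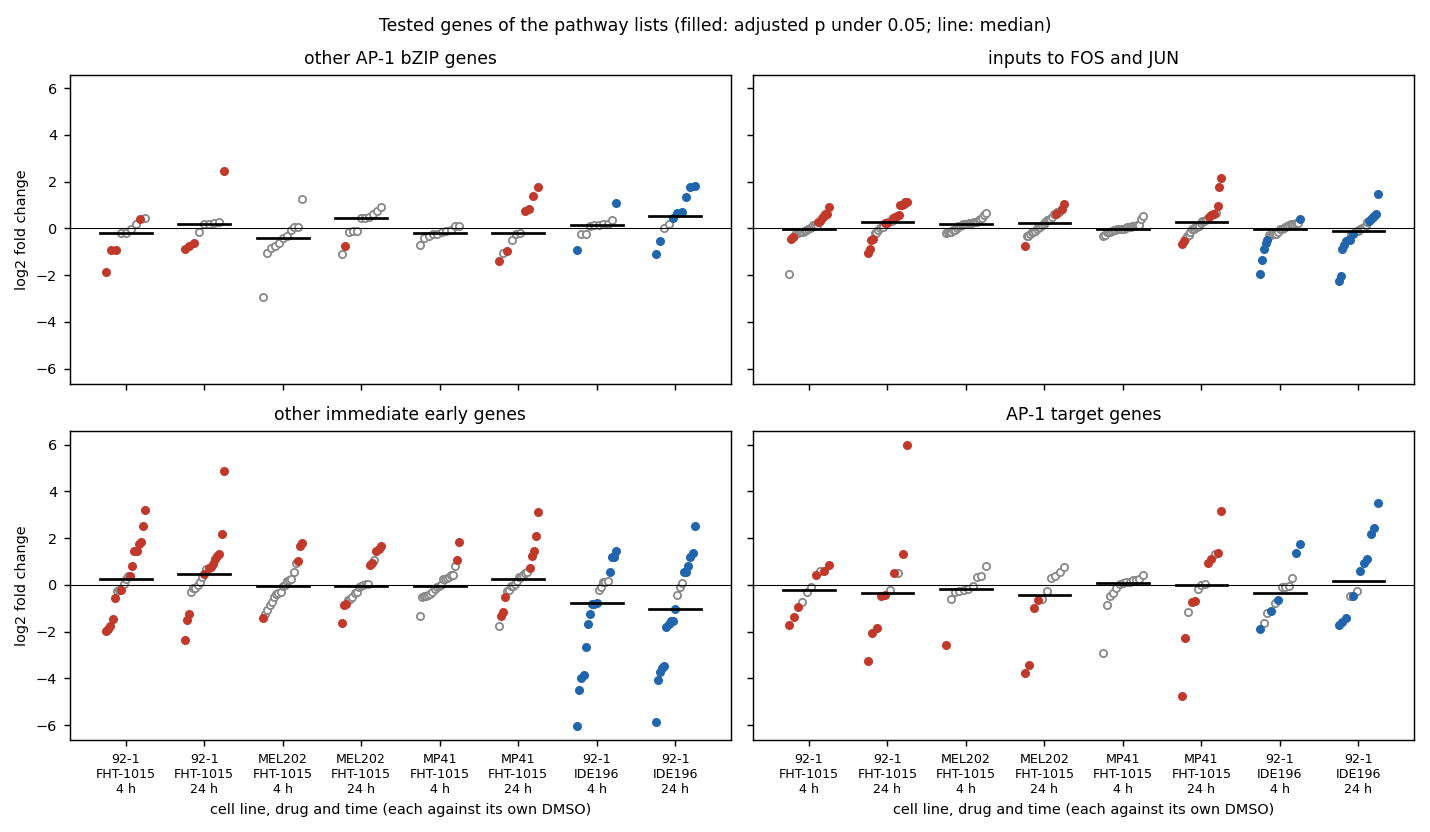
Log2 fold change of every tested gene of the 4 lists (points, filled where the edgeR adjusted p was under 0.05) and the list median (line), in each of the 8 drug comparisons. The immediate early list has its lowest medians with IDE196, at -0.776 and -1.05, and the target list has points on both sides of 0 in most comparisons.

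The genes whose 8 log2 fold changes were most like those of a member were sought among 9371 or 9372 protein-coding genes, as a description over 4 experiments. Each correlation rests on 8 values and was picked from the top of all candidates. Its size was not tested and does not show shared regulation. For JUNB the nearest genes were MEX3B (Pearson r = 0.969), HYAL2 (0.968) and NR4A1 (0.966), the last an immediate early gene, and for BATF3 PARVB (0.99), ELOVL6 (0.989) and AUNIP (0.985). The nearest gene to FOS was STX16 (0.967), to FOSB DLX2 (0.956), to FOSL1 NELFA (0.956), to FOSL2 CSTF2T (0.966), to JUN SETDB2 (0.973), to JUND FRS3 (0.974) and to MAFF ZNF668 (0.957). FOSB, FOSL1 and BATF3 were not themselves candidates (9372 genes searched for each, against 9371 for the other members). They could thus not appear as a nearest gene, and their likeness to other members was not ranked. Of FOS, FOSL2, JUN, JUNB, JUND and MAFF, which were candidates, none was among the nearest 3 genes of another member.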

How the data were processed

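RNA was poly(A)-selected and sequenced as NEBNext Ultra libraries, which do not mark strand, per the labels' protocols. The authors deposited 1 table of raw read counts per library (unstranded column used); hg38 and limma are named in the submitters' processing notes, and the aligner and annotation are not given in the sources used here. Of 58870 genes, 58552 matched GENCODE 29 by identifier, which gave symbols, coordinates and exon lengths. Rows naming no gene held 17.09 to 22.74% of the reads and were left out, and 92 spike-in rows held 0 reads. Libraries held 11394088 to 32317711 reads in genes, and no pair of replicates agreed within counting noise (lowest chi-square per degree of freedom 4.18). The highest was 180.48, for a pair of DMSO libraries of MP41 at 24 h, followed by 176.78 for a pair of FHT-1015 libraries of MEL202 at 4 h.

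Counts were tested with edgeR 4.0.16 (R 4.3.3) by quasi-likelihood F-tests per experiment (TMM scaling, default low-count filter), with Benjamini-Hochberg adjustment over all genes tested and calls at an adjusted p under 0.05. Lines were compared in a joint fit of 36 libraries and the drugs in a joint fit of the 24 libraries of 92-1. CPM values use TMM-scaled library totals, and levels between genes are CPM per kb of exon. The edgeR fits per experiment were tested on simulated counts with known drug changes at 4 h. The joint fits, the other tools and the search for like genes were not tested in this way. Alternatives were relative log expression scaling, library size alone, no filter, DESeq2 1.42.0, limma-voom (limma 3.58.1) with quality weights, both strands summed, a replicate block, the 6 compared libraries alone, all 48 libraries in a single fit, each library left out, and the longest transcript as length. All 9 members are named, and all detected genes of the bZIP list may be. Of the other lists the text draws on at most the 2 called genes with the largest rise and the 2 with the largest fall per comparison among those with a mean of at least 5 CPM. Marker genes, and RPS6KA3 in 92-1 with FHT-1015, were named after their values were seen. The 3 nearest genes of a member were those with the highest Pearson r over the 8 log2 fold changes; for 7 members only the nearest is printed. A gene of the target list is counted but not reported by name here. The members and lists were chosen with earlier results of these data known. Motifs were searched as exact letters in the RefSeq windows.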

Additional observations from a re-analysis of the deposited data

Results flagged for a closer look

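Differences of an effect between times or lines that passed the test are gathered here. With FHT-1015 in 92-1, a change of the effect with time was called for JUN (edgeR adjusted p = 0.0197), JUND (0.0121) and BATF3 (0.0244). In MP41 such a change was called for FOSB (edgeR adjusted p = 0.0379), FOSL1 (0.00604), BATF3 (0.00728) and MAFF (0.000582). With IDE196 it was called for FOS (edgeR adjusted p = 3.18e-05), which was low at 4 h and not at 24 h, and for FOSL1 (0.0419) and MAFF (0.00307), both lower against DMSO at 24 h than at 4 h. Among the 3 lines, the FHT-1015 effect differed at 4 h for FOS (edgeR adjusted p = 0.00822) and FOSB (0.000901). At 24 h it differed for FOSB (edgeR adjusted p = 0.00247), FOSL2 (0.0249), JUN (0.00568) and MAFF (8.15e-06).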

How the results depend on the processing

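Of 628 member values recomputed under an alternative, 569 kept their sign and their side of the threshold, 11 lost the call, 38 gained it and 10 changed sign. With a library left out the numbers were 806 of 864, 26, 13 and 19. The members called lower in 92-1 at 4 h of FHT-1015 (1) became 0 with library size alone, DESeq2, the 6 compared libraries alone and all 48 libraries in a single fit, and 2 without the filter and with limma-voom (0 to 2 with a library left out). In MEL202 at 4 h, 1 member was higher without the filter, with DESeq2 and in the 48-library fit, and 1 lower in the last. At 24 h in MEL202 the 1 higher became 2 without the filter, with DESeq2, with the replicate block, with 6 libraries and with 48, and 3 with limma-voom (0 to 2 with a library left out). In MP41 at 4 h the 1 lower became 2 with DESeq2 and with 6 libraries and 3 with limma-voom (0 to 1 with a library left out), and the 0 higher became 1 with limma-voom and with 6 libraries. At 24 h in MP41 the 1 higher became 3 with limma-voom and 0 with 6 libraries (1 to 2 with a library left out). With IDE196, 1 in place of 2 was higher at 4 h in the 48-library fit, and 2 in place of 1 at 24 h with limma-voom (1 to 2 with a library left out). Effects that changed with time in 92-1 with FHT-1015 (3) became 5 with limma-voom, which called 54.1% of all genes there, and 5 with the replicate block (2 to 5 with a library left out). In MEL202 the 0 became 1 with limma-voom, which called 16% of all genes. Differences over time in DMSO became 1 without the filter in 92-1 (FHT-1015 experiment, 0), 2 without the filter in its IDE196 experiment (0, with 0 to 1 when a library was left out), and 2 with DESeq2 and 6 with limma-voom in MP41 (1, with 0 to 3). The drugs differed at 24 h for 8 members without the filter, in place of 5. The cause of these changes was not tested, except that a left-out library leaves fewer samples.

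Only values within 0.2 of 0 changed sign. These were FOSL1 in 92-1 at 4 h of FHT-1015 (0.007 with library size alone, 0.0 with 48 libraries, -0.118 to 0.065 with a library left out), FOS in MEL202 at 4 h (0.019 with library size alone, 0.047 with limma-voom, -0.205 to 0.09), FOSB in MEL202 at 24 h (0.111 with limma-voom, -0.423 to 0.345), JUND in MP41 at 4 h (-0.067 with limma-voom, -0.096 to 0.107), JUN in MP41 at 24 h (-0.112 with limma-voom, -0.048 to 0.212) and FOS with IDE196 at 24 h (0.021 with library size alone, 0.042 with limma-voom, 0.025 with 48 libraries, -0.213 to 0.071). With a library left out alone, signs also changed for MAFF in 92-1 at 4 h (-0.176 to 0.047), BATF3 in MEL202 at 4 h (-0.481 to 0.087), JUN (-0.279 to 0.02) and FOSL2 (-0.039 to 0.209) in MP41 at 4 h, and BATF3 with IDE196 at 4 h (-0.336 to 0.097). Replicate numbers were not taken to pair the libraries, since the labels tie them to no shared culture and no more than 7 of 18 same-numbered pairs had a correlation of deviations above 0.1 (-0.32 to 0.51). A hint of pairing remained in the data, as 12 of 18 drug libraries correlated best with the DMSO library of their own number, out of 3 each. In MP41 every drug library did so. The arms of the IDE196 experiment share no numbers. With the replicate block, JUN in 92-1 with FHT-1015 was called at 4 h and at 24 h (adjusted p = 0.0313 and 0.0186), and FOSL2 in MEL202 at 24 h (0.0393). The same block lost the call of BATF3 in 92-1 at 4 h of FHT-1015 (edgeR adjusted p = 0.057). It also lost that of FOSB among the lines in DMSO at 24 h (0.053). With the list counts, limma-voom gave 11 inputs higher in MEL202 at 24 h in place of 3. The fewest reads per library stood behind FOSL1 in MEL202 and with IDE196, and behind BATF3 in 92-1.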
